A study of Homo sapiens with 6 samples.

Results

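Transcripts of 9 human aldo-keto reductase genes were followed in the human liver cancer line Huh7 after knockdown of TRIM15. The members were AKR1A1, AKR1B1, AKR1B10, AKR1C1, AKR1C2, AKR1C3, AKR1C4, AKR1D1 and AKR7A2, taken by gene name from a deposited table of 58735 gene rows. Each name matched 1 row. The shTRIM15 group held 3 libraries of Huh7 cells carrying a short hairpin RNA against TRIM15, an E3 ubiquitin ligase gene, and the shcontrol group held 3 libraries of Huh7 cells carrying a control short hairpin RNA. Both groups were cultured in serum-supplemented RPMI-1640, the labels name no drug, and they give neither the hairpins' sequences nor their number. Values are FPKM, reads divided by gene length in kilobases and by library size. The labels do not say whether the replicates were separate cultures, so p-values measure the spread between these libraries, which may be technical.

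Aldo-keto reductases are cytosolic enzymes that mostly use NADPH to reduce aldehydes and ketones to alcohols. In liver they clear reactive aldehydes from diet, drugs and lipid peroxidation, and several act on steroid hormones and bile acid precursors. In human cells AKR1B10 and several AKR1C genes are known targets of NRF2, the transcription factor of the oxidative stress response, and AKR1B10 is often raised in liver tumours.

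The members sit on 3 chromosomes in GENCODE 29 on GRCh38. On chromosome 10 lie AKR1C1 (ENSG00000187134, chr10:4963253-4983283, plus strand), AKR1C2 (ENSG00000151632, chr10:4987400-5018031, minus strand), AKR1C3 (ENSG00000196139, chr10:5035354-5107686, plus strand) and AKR1C4 (ENSG00000198610, chr10:5195462-5218949, plus strand). On chromosome 7 lie AKR1B1 (ENSG00000085662, chr7:134442350-134459284, minus strand), AKR1B10 (ENSG00000198074, chr7:134527592-134541408, plus strand) and AKR1D1 (ENSG00000122787, chr7:138002324-138117986, plus strand). On chromosome 1 lie AKR7A2 (ENSG00000053371, chr1:19303965-19312146, minus strand) and AKR1A1 (ENSG00000117448, chr1:45550543-45570049, plus strand).

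AKR1C1 and AKR1C2 are near copies, and their promoters are shown here because these were the members whose transcript levels passed the test. Their coding sequences were identical at 950 of 969 bases in GENCODE 29. The genes lie tail to tail on chromosome 10 with 4116 bases between them. RefSeq promoter windows, 250 bases before to 50 bases after a gene's start on build GRCh38.p14, were found for 8 of the 9 members, with AKR1B10 the one without an entry. In the pair below, read from 5′ to 3′ on each gene's own strand, capitals mark the bases that differ, or have no partner, where the windows overlap. The window ends that lie outside the overlap are in lower case. The first lies at chr10:4963165-4963464 on the plus strand and the second at chr10:5003808-5004107 on the minus strand.
AKR1C1: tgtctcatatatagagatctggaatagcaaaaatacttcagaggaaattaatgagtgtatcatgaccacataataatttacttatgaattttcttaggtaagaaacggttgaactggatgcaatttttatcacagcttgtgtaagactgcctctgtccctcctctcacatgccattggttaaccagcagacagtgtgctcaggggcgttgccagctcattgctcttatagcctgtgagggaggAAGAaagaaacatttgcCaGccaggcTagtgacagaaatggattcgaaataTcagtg
AKR1C2: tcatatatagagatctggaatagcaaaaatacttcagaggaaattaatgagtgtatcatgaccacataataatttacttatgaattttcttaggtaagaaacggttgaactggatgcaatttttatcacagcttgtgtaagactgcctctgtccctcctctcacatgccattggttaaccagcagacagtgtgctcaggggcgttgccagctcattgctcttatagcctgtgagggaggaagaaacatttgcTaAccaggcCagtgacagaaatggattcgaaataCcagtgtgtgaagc

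Of 296 aligned columns where these windows overlap, 288 were identical, 4 held a substitution and 4 held a base in only 1 of them. The longest run shared without a difference was 245 bases. The other AKR1C windows were less alike. AKR1C1 shared 73.5% and 71.0% of aligned columns with the windows at the annotated AKR1C3 starts and 60.9% with that of AKR1C4, in alignments over the whole window. By this same measure, which also counts the window ends outside the overlap, AKR1C1 shared 93.5% with AKR1C2.

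A stretch that AKR1C1, AKR1C2 and AKR1C3 have in common is shown next, because it recurs at nearly the same distance before the start in these genes. Capitals mark ATTGG, the reverse complement of the CCAAT box. Positions count the start base as 0.
AKR1C1, from -87 (chr10:4963328-4963357, plus strand): ctcacatgccATTGGttaaccagcagacag
AKR1C2, from -91 (chr10:5003919-5003948, minus strand): ctcacatgccATTGGttaaccagcagacag
AKR1C3, upstream start, from -83 (chr10:5048698-5048727, plus strand): tttacatgctATTGGttaaccattaggcag
AKR1C3, downstream start, from -96 (chr10:5094318-5094347, plus strand): cctacatgccATTGGttaaccatcagtcag

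Both strands of all 35116 promoter windows in the RefSeq table were searched for 5 motifs, of which CCAAT and GTTAAC were chosen after these windows had been read. CCAAT was present in 34.6% of the windows, and among the members in those of AKR1B1, AKR1C1, AKR1C2 and AKR1C3. GTTAAC, which reads the same on both strands, was present in 2.64% of the windows. Among the members it was in those of AKR1C1, AKR1C2 and AKR1C3, where it overlaps the CCAAT match by 1 base. TGACNNNGC, the core of the antioxidant response element bound by NRF2, was in 13.3% of the windows and, among the members, in that of AKR7A2. TATAAA was in 11.5% of the windows and, among the members, in those of AKR1C3 and AKR1C4. TGANTCA, the AP-1 motif, was in 7.71% of the windows and in 0 of those of the members. A match is a run of letters, and elements outside these windows were not searched.

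The libraries held 17332508 to 19556855 reads for shTRIM15 and 17715210 to 18217903 reads for shcontrol, counted back from the FPKM values. TRIM15 was at 3.23, 2.11 and 2.51 FPKM in the shTRIM15 libraries and at 5.17, 5.09 and 4.88 FPKM in the shcontrol libraries. The groups did not overlap, as the labels would have it (log2 fold change -0.75, SE 0.106, limma adjusted p = 0.00416; two-sided exact permutation p = 0.1, the smallest that 3 against 3 libraries allow). All 10 hepatocyte markers were detected and tested, among them ALB at 928 ± 10.3 FPKM in shTRIM15 and 899 ± 10.2 FPKM in shcontrol libraries (SD, n = 3). TF and FGB fell and 0 of the 10 rose (19.0% of all genes tested were called). All 7 endothelial markers and 7 of 8 immune markers did not reach 0.5 FPKM in any library, and CDH5, CLEC4G and MS4A1 were at 0 in all. The eighth immune marker, LYZ, was at 3.50 ± 0.404 FPKM in shTRIM15 and 3.14 ± 0.315 FPKM in shcontrol libraries (SD, n = 3; limma adjusted p = 0.390).

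Levels fell into 2 ranges. AKR1B1, AKR1A1, AKR7A2, AKR1C1 and AKR1C2 stayed between 15.5 and 54.2 FPKM in every library, while AKR1B10, AKR1C4, AKR1C3 and AKR1D1 never passed 1.98 FPKM. Together AKR1B1 and AKR1A1 made up 60.3 to 61.9% of the summed FPKM of the 9 genes in shTRIM15 libraries and 61.4 to 62.2% in shcontrol libraries. AKR1B1, which encodes aldose reductase, the enzyme that turns glucose into sorbitol, stood above 94.3% of the 14847 genes tested by its mean over the 6 libraries. AKR1C1, AKR1C2, AKR1B10 and AKR1C4 stood above 80.5%, 79.7%, 25.04% and 3.13% of them.

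**Figure D1:**
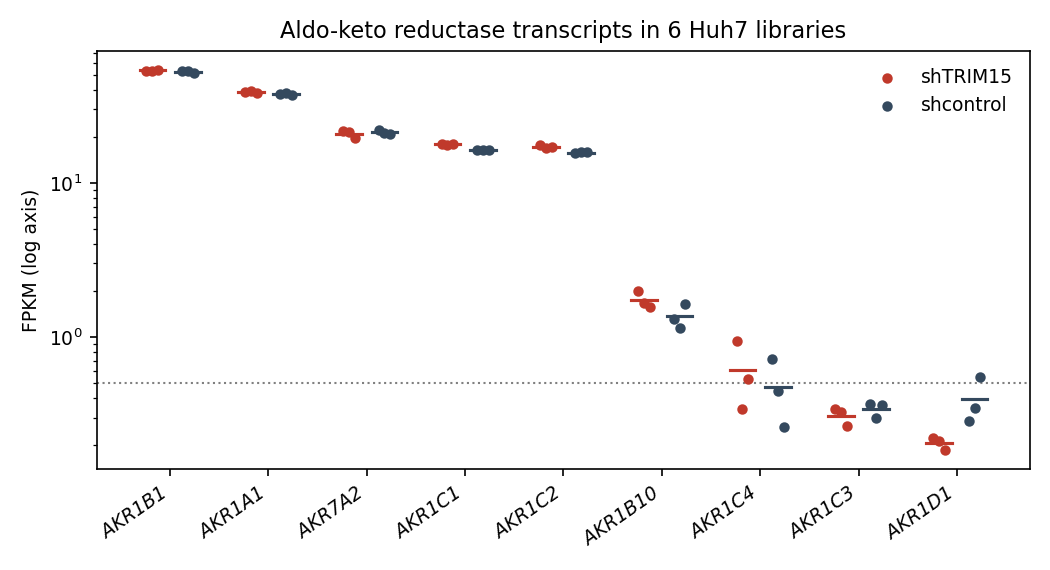
FPKM of the 9 members on a log axis, with 1 point per library, a bar at each group's mean (n = 3), shTRIM15 in red to the left of shcontrol in dark blue, and a dotted line at the 0.5 FPKM minimum used for testing. The lower 4 members stay at or below 1.98 FPKM in all libraries, and the other 5 stay at or above 15.5 FPKM.

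In order of mean FPKM the members ran AKR1B1, AKR1A1, AKR7A2, AKR1C1, AKR1C2, AKR1B10, AKR1C4, AKR1C3 and AKR1D1. The ranges over 6 libraries did not overlap between most neighbours. AKR1C1 and AKR1C2 overlapped in range, though AKR1C1 was higher within each of the 6 libraries. AKR1C4 was above AKR1C3 in 5 of 6 libraries, and AKR1C3 above AKR1D1 in 4 of 6, and the ranges of these neighbours overlapped.

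This order rests on the gene lengths in the deposited table, which differ more than the proteins do. The deposited lengths were 8765 bases for AKR1C1 and 6461 for AKR1C2, against coding lengths of 969 bases for each in GENCODE 29. With reads divided by coding length in place of the deposited length, an alternative added after the data were seen, AKR1C1 moved up to the second place, at 163 ± 2.06 in shTRIM15 and 147 ± 1.09 in shcontrol libraries (RPKM by coding length; SD, n = 3). AKR7A2 moved down to the fifth place, at 34.96 ± 2.13 in shTRIM15 and 35.1 ± 1.01 in shcontrol libraries. AKR1B1 stayed first and AKR1D1 last. Reads outside the coding sequence stay in these values. The length of a gene is the same in all libraries, so in the comparison between groups it enters through the pseudocount and the filter. By coding length AKR1C3 and AKR1D1, which did not pass the filter on deposited FPKM, had at least 1.25 and 0.590 in every library.

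**Figure D2:**
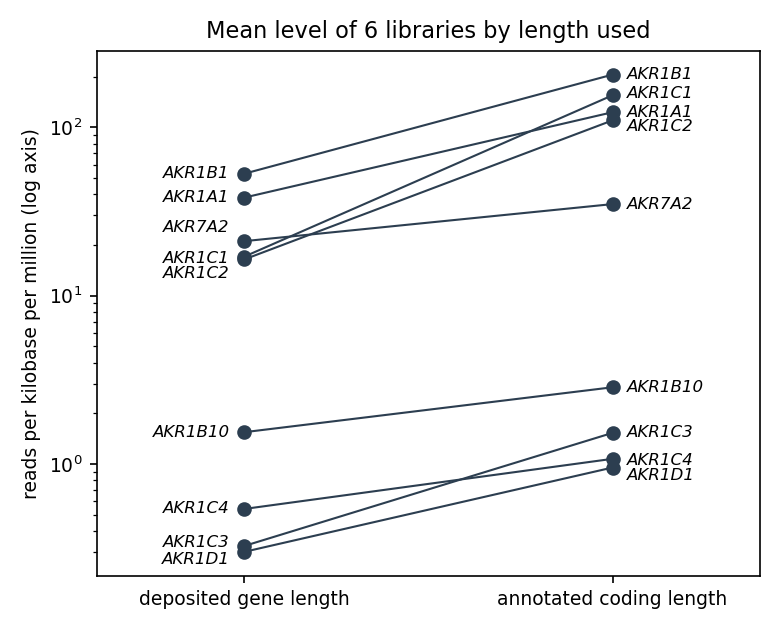
Mean level of each member over 6 libraries on a log axis, with the deposited gene length on the left and the annotated coding length on the right. AKR1C1 passes AKR7A2 and AKR1A1, and AKR7A2 drops from the third to the fifth place.

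The comparison of the groups asked whether these transcripts differ when TRIM15 is reduced. AKR1C1 and AKR1C2 rose in shTRIM15 cells, by 8.79% and 9.26% in mean FPKM. Of the 7 members that passed the filter (at least 0.5 FPKM in 3 or more libraries), these were the 2 called higher, and 0 were called lower by limma at an adjusted p under 0.05, with AKR1C1 and AKR1C2 also the 2 members with an unadjusted p under 0.05. Of all 14847 genes tested 19.0% were called, with 8.93% of all genes tested called higher and 10.1% called lower. The members' median log2 fold change was 0.11, against 0.0014 for all genes tested. This median is the value of AKR1C1. AKR1A1, AKR1B1 and AKR7A2 lay below it, at 0.053, 0.030 and -0.026. AKR1C2, AKR1C4 and AKR1B10 lay above it, at 0.12, 0.12 and 0.21. AKR1C1 and AKR1C2 are near copies. AKR1C4, with at most 34 reads in a library, turned to -0.026 without shTRIM15 replicate 1, so the median is no measure of the whole family. With values rescaled to the summed reads of each library, calls of higher genes made up 57.1% of all calls, against 47.0% with the authors' scaling, and the 2 members were called under both (11.3% of all genes higher after rescaling).

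AKR1C1 encodes a ketosteroid reductase that inactivates progesterone. It was at 17.99, 17.6 and 17.8 FPKM in the shTRIM15 libraries and at 16.4, 16.5 and 16.2 FPKM in the shcontrol libraries. All 3 shTRIM15 libraries were above all 3 shcontrol libraries. The mean was 17.8 ± 0.218 FPKM in shTRIM15 and 16.4 ± 0.122 FPKM in shcontrol libraries (SD, n = 3 each), a difference of 8.79%. The log2 fold change of FPKM + 1 was 0.11 (SE 0.0247, 95% interval 0.0562 to 0.173, limma adjusted p = 0.0202).

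AKR1C2 encodes the close relative that inactivates dihydrotestosterone and binds bile acids. It was at 17.6, 16.8 and 17.1 FPKM in the shTRIM15 libraries and at 15.5, 15.7 and 15.9 FPKM in the shcontrol libraries. Again the groups did not overlap. The mean was 17.2 ± 0.381 FPKM in shTRIM15 and 15.7 ± 0.154 FPKM in shcontrol libraries (SD, n = 3 each), a difference of 9.26%, with a log2 fold change of 0.12 (SE 0.0276, 95% interval 0.0550 to 0.186, limma adjusted p = 0.0250). Both changes were small among the genes called: 91.1% of these had a larger absolute log2 fold change than AKR1C2, and their median was 0.22.

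**Figure D3:**
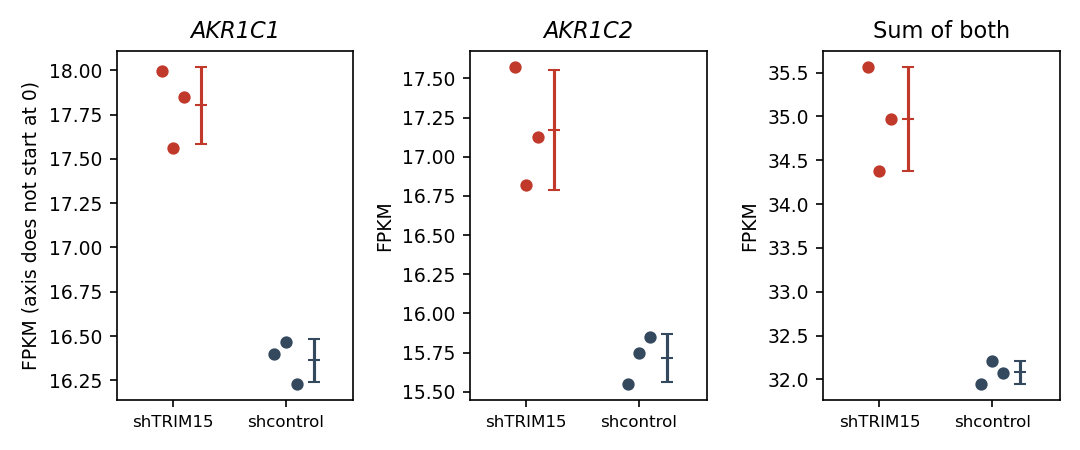
FPKM of AKR1C1, AKR1C2 and their sum in each library (points), with the group mean and SD (n = 3) beside them, shTRIM15 in red to the left of shcontrol in dark blue. The axes do not start at 0. In each panel the 3 shTRIM15 libraries lie above the 3 shcontrol libraries.

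Because the coding sequences are so alike, reads could have been placed on either gene. Of all windows of 50, 100 and 150 bases in the AKR1C1 coding sequence, 51.6%, 18.9% and 4.63% also occurred unchanged in an AKR1C2 transcript. Parts of the AKR1C1 transcripts outside the coding sequence were not searched. The labels state neither read length nor how reads matching several genes were handled, and the values of the single genes are uncertain. Their sum does not depend on how reads are split between them. It was 5117, 5189 and 4688 reads in the shTRIM15 libraries and 4414, 4343 and 4441 reads in the shcontrol libraries. Scaled to library size as RPM, the sum was 270 ± 4.43 in shTRIM15 and 244 ± 0.972 in shcontrol libraries (SD, n = 3), a difference of 10.6%. In deposited FPKM, whose library sizes differ from the summed reads, the sum differed by 9.02%. Windows of 50 bases in the AKR1C2 coding sequence also occurred in transcripts of AKR1C3 (18.4%) and AKR1C4 (8.26%). The sum of AKR1C1 to AKR1C4 differed by 10.6% in RPM. AKR1C1 took 58.1 to 58.6% of the pair's reads in shTRIM15 and 58.1 to 58.9% in shcontrol libraries, so the split between the genes overlapped between the groups.

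The 2 calls were narrow. In limma's fit, leaving out any 1 of 4 libraries (shTRIM15 replicate 1 or 3, shcontrol replicate 2 or 3) ended the call of AKR1C1, with adjusted p up to 0.0721. Leaving out any of these or shcontrol replicate 1 ended that of AKR1C2, with adjusted p up to 0.0834. These fits called 5.58%, 5.73% and 5.33% of all genes higher without shTRIM15 replicate 1, 2 or 3, and 7.51%, 5.95% and 6.32% without shcontrol replicate 1, 2 or 3. Without a trend in the variance the adjusted p was 0.0531 for AKR1C1 and 0.0589 for AKR1C2, where 6.62% of all genes were called higher. Limma voom on the whole reads also changed the scaling, because it took the summed reads as library size. It called 28.2% of genes in either direction and 15.9% higher. By voom AKR1C1 and AKR1C2 were both called (log2 fold change 0.14 and adjusted p = 0.000460 for AKR1C1, 0.15 and 0.00145 for AKR1C2). In voom fits without 1 library, added after the data were seen, both stayed called in 6 of 6, with the highest adjusted p at 0.00446 and 0.0162. These called 14.0%, 13.6% and 13.2% of all genes higher without shTRIM15 replicate 1, 2 or 3, and 14.8%, 13.1% and 13.5% without shcontrol replicate 1, 2 or 3.

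**Figure D4:**
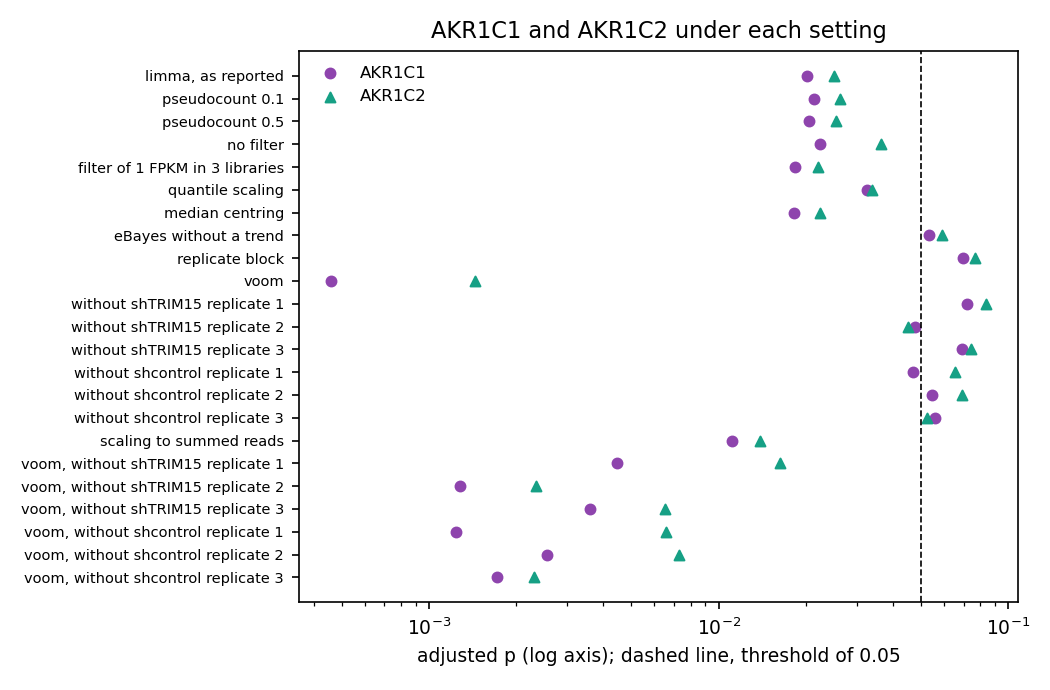
Adjusted p of AKR1C1 (circles) and AKR1C2 (triangles) on a log axis, with 1 line per setting of the fit and a dashed line at 0.05. The voom fits lie well under the threshold, from 0.000460 to 0.0162, and the limma fits without 1 library lie around it, from 0.0451 to 0.0834.

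The remaining abundant members did not pass the test. AKR1A1 encodes aldehyde reductase, which acts on glucuronate and many aldehydes. It was at 39.1, 39.5 and 38.4 FPKM in the shTRIM15 libraries and at 37.6, 38.2 and 37.0 FPKM in the shcontrol libraries. These groups did not overlap, but the difference of 3.82% had a log2 fold change of 0.053 with a 95% interval of -0.0018 to 0.107 (limma adjusted p = 0.166).

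AKR1B1 was at 53.5, 53.4 and 54.2 FPKM in the shTRIM15 libraries and at 52.8, 53.2 and 51.6 FPKM in the shcontrol libraries. The lowest shTRIM15 library lay just above the highest shcontrol library. The log2 fold change was 0.030 (95% interval -0.0199 to 0.0801, limma adjusted p = 0.384), and 0.017 without shcontrol replicate 3, its lowest library. With AKR1C1 and AKR1C2, 4 of the 7 tested members were higher in every shTRIM15 library than in any shcontrol library. Over all genes tested this held for 18.8%, and 37.8% did not overlap in either direction.

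AKR7A2 encodes a reductase of succinic semialdehyde and of aflatoxin dialdehyde. It was at 21.8, 21.5 and 19.4 FPKM in the shTRIM15 libraries and at 21.99, 21.0 and 20.9 FPKM in the shcontrol libraries. The groups overlapped, with shTRIM15 replicate 3 the lowest of all. Its log2 fold change was -0.026 (95% interval -0.138 to 0.0855, limma adjusted p = 0.751) and turned to 0.024 without that library.

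AKR1B10 encodes a reductase of retinal and of lipid aldehydes, and in this line its transcript was scarce. It was at 1.98, 1.65 and 1.57 FPKM in the shTRIM15 libraries and at 1.30, 1.14 and 1.64 FPKM in the shcontrol libraries. The shcontrol replicate 3 library lay within the shTRIM15 range. The mean was 1.73 ± 0.215 FPKM in shTRIM15 and 1.36 ± 0.258 FPKM in shcontrol libraries (SD, n = 3 each), and the log2 fold change of 0.21 had a 95% interval of -0.0250 to 0.453 (limma adjusted p = 0.195). On whole reads, 65, 57 and 48 in shTRIM15 against 41, 35 and 52 in shcontrol libraries, voom gave a log2 fold change of 0.38 (adjusted p = 0.230). AKR1B1 lies 68307 bases away on chromosome 7, and the coding sequences of these neighbours, 76.1% identical, share no run of 50 bases.

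**Figure D5:**
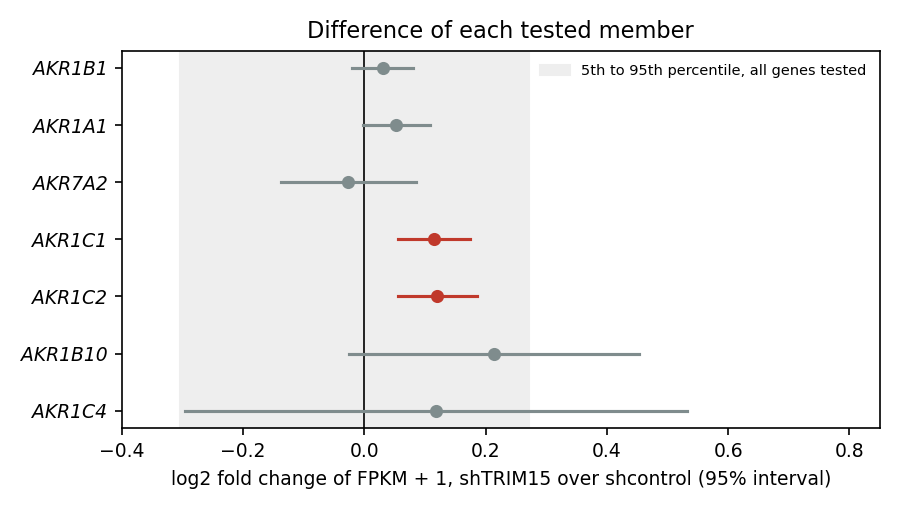
Log2 fold change of FPKM + 1 (shTRIM15 over shcontrol) of the 7 tested members with 95% intervals from limma, red where the adjusted p is under 0.05. The grey band spans the 5th to the 95th percentile of all genes tested, -0.30 to 0.27. The intervals of AKR1C1 and AKR1C2 lie above 0, and the other 5 include 0.

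AKR1C4, AKR1C3 and AKR1D1, which act on steroids or bile acid precursors, had at most 34 reads in any library. AKR1C4, a hepatocyte enzyme that reduces steroids and bile acid intermediates, had 34, 13 and 18 reads in the shTRIM15 libraries and 25, 15 and 9 reads in the shcontrol libraries. It passed the filter narrowly, and the groups overlapped almost entirely. The log2 fold change was 0.12 (95% interval -0.296 to 0.533, limma adjusted p = 0.697) and turned to -0.026 without shTRIM15 replicate 1, its highest library.

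AKR1C3, which encodes a reductase that makes testosterone and prostaglandin F, did not pass the filter. It had 29, 29 and 21 reads in the shTRIM15 libraries and 30, 24 and 30 reads in the shcontrol libraries. The sums were 79 reads in shTRIM15 (exact Poisson 95% interval 62.5 to 98.5) and 84 reads in shcontrol libraries (67.0 to 104), and these intervals cover counting error only. The intervals overlapped, and at this depth a small difference would be missed.

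AKR1D1, the reductase of the steroid A ring in bile acid synthesis, did not pass the filter either. It had 13, 13 and 10 reads in the shTRIM15 libraries and 16, 19 and 31 reads in the shcontrol libraries. Every shTRIM15 library was below every shcontrol library, and shcontrol replicate 3 stood above the other 5. The sums were 36 reads in shTRIM15 (exact Poisson 95% interval 25.2 to 49.8) and 66 reads in shcontrol (51.0 to 84.0). In the fit without a filter, which called 5.89% of 32030 genes, the log2 fold change was -0.21 and the limma adjusted p was 0.292. In these bulk samples fewer cells with a transcript and less of it per cell cannot be told apart.

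Other family members were low or at 0. AKR1E2 and AKR1C8P were listed at 0 in all 6 libraries, and AKR1B15, a near neighbour of AKR1B10, had 1 read in all. AKR7A3 had 5 to 11 reads in shTRIM15 and 6 to 17 reads in shcontrol libraries, and AKR7L had 6 to 16 reads in both groups. The potassium channel beta subunit genes, which share the protein fold, were the 3 tested relatives, and 0 of them were called by limma (0 with an unadjusted p under 0.05; 1, KCNAB1, by voom with adjusted p = 0.0441). KCNAB1 was at 0.476 ± 0.0540 FPKM in shTRIM15 and 0.679 ± 0.0960 FPKM in shcontrol libraries (SD, n = 3; log2 fold change -0.19, limma adjusted p = 0.213). KCNAB2 was at 0.858 ± 0.149 FPKM in shTRIM15 and 0.900 ± 0.0674 FPKM in shcontrol libraries (SD, n = 3; limma adjusted p = 0.830). KCNAB3 was at 0.939 ± 0.0744 FPKM in shTRIM15 and 0.792 ± 0.130 FPKM in shcontrol libraries (SD, n = 3; limma adjusted p = 0.419). Of 15 rows named as pseudogenes of the family, 9 were at 0 in all libraries and none passed 0.309 FPKM. On the strand opposite AKR1C2, the antisense gene AL391427.1 had 4, 4 and 6 reads in shTRIM15 and 3, 4 and 3 reads in shcontrol libraries. The library kit keeps strand, but the labels do not say whether counting used it, and these reads are few beside the 1796 to 2147 reads of AKR1C2.

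NRF2 target genes, often induced together with AKR1B10 and several AKR1C genes, moved in both directions. Of 28 tested, 4 rose and 3 fell (19.0% of all genes were called), with a median log2 fold change of 0.025. ME1, the cytosolic malic enzyme that supplies NADPH, rose to 27.0 ± 0.937 FPKM in shTRIM15, against 23.9 ± 0.367 FPKM in shcontrol libraries (SD, n = 3; log2 fold change 0.17, limma adjusted p = 0.0111). PIR, a nuclear iron-binding protein gene, rose (0.21). GSR, the glutathione reductase gene, fell to 45.7 ± 0.888 FPKM in shTRIM15, against 66.2 ± 0.524 FPKM in shcontrol libraries (-0.52, adjusted p = 9.1e-05). FTL, the ferritin light chain gene, also fell (-0.28). NFE2L2, which encodes NRF2, fell to 37.7, 37.1 and 36.5 FPKM in the shTRIM15 libraries, against 41.1, 40.4 and 40.0 FPKM in the shcontrol libraries (-0.12, SE 0.0230, adjusted p = 0.0119). KEAP1, its inhibitor, was at 35.9 ± 1.06 FPKM in shTRIM15 and 33.3 ± 1.34 FPKM in shcontrol libraries (SD, n = 3; 0.11, limma adjusted p = 0.0854; voom adjusted p = 0.00327). Among the 13 genes of NRF2 and its regulators, 3 rose and 1 fell (30.8% called, against 19.0% of all genes tested). NFE2L1, a relative of NRF2 that controls proteasome genes, rose by 0.43, MAFF, a small MAF partner, by 0.21, and SQSTM1, the autophagy adaptor that binds KEAP1, by 0.19 on the log2 scale. NRF2 protein and its location were not measured.

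Other enzymes of aldehydes, ketones and steroids were mixed too. Of 24 tested short-chain, alcohol and aldehyde dehydrogenases and related enzymes, 1 rose and 2 fell (12.5% called, against 19.0% of all genes tested), with a median of -0.012: DHRS3, a retinal reductase, rose (0.16), while RDH11, also a retinal reductase (-0.21), and ALDH3A2, a fatty aldehyde dehydrogenase (-0.10), fell. Of 12 tested steroid enzymes, 2 rose and 3 fell (41.7% called, against the same 19.0%), with a median of -0.067. STS, the steroid sulfatase gene (-0.40), and HSD17B12 (-0.35), which acts in fatty acid elongation, fell, and HSD17B14 (0.25) and HSD17B10 (0.13) rose. HSD17B11, named after its values were seen, also fell (-0.13). Of 11 tested genes of bile acid synthesis and its regulation, a pathway in which AKR1D1 and AKR1C4 act, 2 rose and 1 fell (27.3% called, against the same 19.0%), with a median of 0.062. The nuclear receptor genes NR1H4 and NR0B2 are among them, and neither encodes an enzyme of the pathway. AMACR, a racemase of bile acid side chains, rose by 0.30 and ACOT8, a peroxisomal thioesterase, by 0.18, while NR1H4, the bile acid receptor gene, fell (-0.32). None of these 3 was called in limma without shTRIM15 replicate 2 or 3 or without shcontrol replicate 2 or 3. CYP7A1, the first enzyme of the classic bile acid pathway, was listed at 0 in all libraries.

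Of 8 fibroblast and stellate cell markers 3 were tested, and LUM and COL1A2 fell. Of all genes tested, 10.1% were called lower and 19.0% in either direction. The summed level of the list was 55.6 to 57.8 FPKM in shTRIM15 and 62.5 to 66.2 FPKM in shcontrol libraries, and most of it was LUM, at 50.7 ± 1.25 FPKM in shTRIM15 and 57.6 ± 1.95 FPKM in shcontrol libraries (SD, n = 3; limma adjusted p = 0.00931). COL1A1, the other marker tested, was at 0.920 ± 0.137 FPKM in shTRIM15 and 0.907 ± 0.00839 FPKM in shcontrol libraries (SD, n = 3; limma adjusted p = 0.965). COL3A1 did not pass the filter and was higher in every shTRIM15 library, with 115 reads in shTRIM15 and 71 reads in shcontrol libraries in all. Among all genes tested, 18.8% were higher in every shTRIM15 library. DCN, PDGFRB and ACTA2 stayed at or under 0.0794 FPKM in every library and THY1 was at 0. Their part in the results for the members was not tested.

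The genes whose pattern over the 6 libraries was most like that of AKR1B1, the most abundant member, were MANBAL, AFDN and E2F1. The root mean square difference of their deviations from their own mean, on the log2(FPKM + 1) scale, was 0.0096, 0.010 and 0.011. They were taken from 4544 tested genes with a mean of at least 10 FPKM. For each of the 3 the groups overlapped, and none was called. The SD of AKR1B1 was 0.848% of its mean in shTRIM15 and 1.64% in shcontrol libraries, where counting alone gives 1.65% and 1.70%. The pattern matched is thus nearly flat, and shared control of these genes was not tested.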

How the data were processed

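Total RNA of 3 shTRIM15 and 3 shcontrol Huh7 samples was enriched for mRNA and made into directional libraries, per the labels' protocols. The authors deposited 1 table of FPKM per gene. The aligner, counter and read handling are not given in the sources used here. The submitters' processing notes name the mouse build mm10, but all 58735 gene IDs match human GENCODE 29 on GRCh38, which is used for coordinates. FPKM times gene length gave whole reads for 100% of values (tolerance 0.01 reads), and these are the reads printed. The library size implied by FPKM was 1.04 to 1.27% above the summed reads in shTRIM15 and 0.359 to 0.370% below them in shcontrol libraries.

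The test was limma 3.58.1 in R 4.3.3 (lmFit, eBayes with a trend) on log2(FPKM + 1), two-sided, over 14847 genes with at least 0.5 FPKM in 3 or more libraries, with Benjamini-Hochberg adjustment over all of them and a threshold of 0.05. Fold changes on this scale understate low genes. The fit was tested on simulated data. Intervals on reads are exact Poisson at 95% and cover counting error only. Sequences were compared with Biopython 1.88. Alternatives were other pseudocounts, filters and scalings, no variance trend, a replicate block, limma voom on whole reads, and leaving out each library. The text names all members, TRIM15, all other aldo-keto reductases, NFE2L2, KEAP1, at most 4 called genes of each list by absolute log2 fold change, and the 3 genes most like the most abundant member. HSD17B11, CYP7A1 and the cell type markers named singly fall outside this rule and were chosen after their values were seen. Members and lists were chosen with earlier results of these data known.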

Additional observations from a re-analysis of the deposited data

How the results depend on the processing

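TRIM15, AKR1A1, AKR1B1, AKR1B10, AKR1C1 and AKR1C2 kept their direction in all 22 alternatives. The log2 fold change ranged from 0.10 to 0.15 for AKR1C1 and from 0.10 to 0.17 for AKR1C2. The call ended in 6 of the 22 for AKR1C1 and in 7 for AKR1C2. Voom fits with 1 library left out and scaling to summed reads were added after the data were seen. Both genes stayed called in all of these. Among the other 15 alternatives the call ended in 6 for AKR1C1 and in 7 for AKR1C2. Members called higher numbered 0 without a variance trend and 0 with the replicate block (adjusted p = 0.0698 for AKR1C1 and 0.0765 for AKR1C2), and 0 to 2 with 1 library left out. The cause was not tested. Genes called higher were 1326 as reported, 883 with the replicate block, 2360 by voom, 792 to 1115 by limma with 1 library left out and 1941 to 2197 by voom with 1 left out (2083 and 2017 without shTRIM15 replicate 1 and 2, 1998 without shcontrol replicate 3); genes called lower were 1498, and 978 to 1224 by limma or 1537 to 1765 by voom with 1 left out. The replicate numbers did not pair the samples: deviations of same-numbered libraries correlated at 0.0125, 0.00862 and 0.0133, although each library correlated best with its own number. With 1 library left out in limma, log2 fold changes ranged from -0.026 to 0.24 for AKR1C4 and from -0.057 to 0.024 for AKR7A2. AKR1C4 turned to -0.026 without shTRIM15 replicate 1 in limma, and in voom to -0.022 without that library and to -0.013 without shcontrol replicate 3. AKR7A2 turned to 0.024 in limma and 0.045 in voom without shTRIM15 replicate 3, and to 0.020 in voom without shcontrol replicate 1. Called genes among other aldo-keto reductases were 0, and 1 by voom. Among NRF2 targets they were 7, but 3 without a filter, 3 without a trend, 11 by voom and 4 to 6 with 1 library left out. Among NRF2 and its regulators they were 4, but 2 without a trend. Among bile acid genes they were 3, but 0 without a filter, 1 with the replicate block, 5 by voom and 0 to 2 with 1 library left out. Among other steroid enzymes they were 5, but 3 without a filter, 3 without a trend, 3 with the replicate block and 2 to 5 with 1 library left out. Among other carbonyl and aldehyde enzymes they were 3, and 1 to 3 with 1 library left out. Depth limits AKR1C3, AKR1C4 and AKR1D1, which had at most 34 reads in a library.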

Other observations

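For AKR1C1 and AKR1C2 the spread between libraries was below or close to what counting alone gives. These genes were picked by a test that favours a small spread. AKR1A1 and AKR1B1 were also below it in both groups. AKR7A2 was above it in shTRIM15 (6.22%, where counting alone gives 3.78%) and below it in shcontrol libraries (2.87% and 3.83%). The coefficient of variation of AKR1C1 was 1.23% in shTRIM15 and 0.743% in shcontrol libraries, where counting alone gives 1.85% and 1.97% per library in these groups. That of AKR1C2 was 2.22% in shTRIM15 and 0.979% in shcontrol libraries, where counting alone gives 2.19% and 2.34%. The standard error of the AKR1C1 log2 difference from counting alone was 0.0225, beside 0.0247 in limma, and that of AKR1C2 was 0.0267, beside 0.0276.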
